A study of Homo sapiens with 8 samples.

Results

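The comparison was between 2 cell lines of the MCF10A breast progression series grown in the same medium. M1 is MCF10A, a spontaneously immortalised and non-tumorigenic human mammary epithelial line, and M2 is MCF10AT1k.cl2, a line made from it by transfection with activated T24-HRAS and selection in xenografts. RNA-seq of poly A+ RNA gave 8 libraries from 4 lines, 2 biological replicates each, and the comparison used the 4 libraries of M1 and M2, chosen by the line named in the sample labels. Both lines were seeded at 8000 cells/ml, grown for 8 days as 3D cultures in Matrigel with 2% horse serum, hydrocortisone, cholera toxin and insulin, and received EGF at 10 ng/ml, so the medium was the same on both sides. M2 is 1 clone of a line that has also passed through a mouse host, so the oncogene, the clone and the selection cannot be told apart. Of 56632 genes in the count table, 18431 passed the filter on low counts, and 14088 of these are protein coding and are described here.

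EGF binds EGFR, the receptor tyrosine kinase on which MCF10A cells depend for growth, and EGFR activates RAS, a GTP-binding switch that starts the RAF, MEK and ERK kinase cascade. Activated HRAS is locked in its GTP-bound state and signals without the receptor. MCF10A cells in Matrigel form hollow acini and largely leave the cell cycle as the acini mature. ERK activity induces transcription factors of the FOS family, EGF-like ligands that feed back on the receptor, and phosphatases that dampen the pathway.

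The total count per library was 80777863 and 83512003 in M1 and 102160562 and 69669945 in M2. Levels are given in CPM, the count scaled to the library total after TMM adjustment for composition. CPM are not corrected for gene length and are compared only between libraries. The M2 replicates were far closer to each other than the M1 replicates: Spearman's rho across 13495 genes was 0.998 in M2 and 0.971 in M1, and 0.889% of these genes differed by over 2-fold between the M2 replicates, against 7.93% between the M1 replicates. The M2 replicates differed by more than the sampling of reads would give (chi-square of 6.95 for each degree of freedom), which does not tell separate cultures from repeated preparation of the same RNA, and they were counted as 2 samples as labelled. The biological coefficient of variation was 0.0574 in M2 and 0.3765 in M1. An M1 library differed by over 2-fold from an M2 library at 11.4% to 11.9% of the genes. A supplementary expression table of the study disagrees with the sample labels on 2 libraries. Across 183 genes, its second M1 column followed the library labelled M2 replicate 1 (r = 0.967) and its first M2 column followed the library labelled M1 replicate 2 (r = 0.972), while its other M1 and M2 columns followed the library of their own label (r = 0.977 and 0.968). These correlations run over genes, not over replicates. The sample labels are used throughout. With these 2 libraries exchanged edgeR called 0 members of every gene list, so each list count below rests on the labels. Each group then holds a library labelled M1 and a library labelled M2, and the libraries labelled M2 are nearly equal. Few calls and medians near 0 were therefore all but fixed beforehand. The results of the exchange, here and below, cannot tell which assignment is right.

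The gene that separates the lines by design, HRAS, gave no check of the labels at the RNA level. HRAS was at 154 and 139 CPM in M1 against 160 and 153 CPM in M2. The difference was 0.10 ± 0.15 (SE) on the log2 scale (adjusted p = 0.736), and the libraries of the 2 lines overlapped. Counts per gene do not separate the transfected activated copy from the cell's own HRAS. EGFR was at 203 and 192 CPM in M1 against 223 and 220 CPM in M2, a difference of 0.17 ± 0.17 (adjusted p = 0.587). NRAS was at 32.3 and 39.8 CPM in M1 against 55.2 and 57.6 CPM in M2, which gave an adjusted p of 0.0558. CDKN2A and CDKN2B, neighbouring cell cycle inhibitor genes that MCF10A is known to have lost, were at 0 counts in all 4 libraries.

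Mammary epithelial markers were present in every library. All 12 listed markers were tested, with KRT5, the basal keratin, at 8411, 6202, 9177 and 9188 CPM in M1 replicate 1, M1 replicate 2, M2 replicate 1 and M2 replicate 2, and EPCAM at 49.9, 72.6, 70.9 and 72.2 CPM. Markers of other cell types were partly absent and partly present. CD3E of T lymphocytes, ADIPOQ of adipocytes, and COL1A2 and DPT of fibroblasts had 0 counts in all 4 libraries, PTPRC of leukocytes had at most 3 counts and CDH5 of endothelium at most 6. The summed level of the 8 fibroblast markers was 60.2 and 9.35 CPM in M1 against 74.7 and 72.7 CPM in M2, with DCN at 34.1, 1.62, 60.2 and 58.6 CPM and COL1A1 at 25.5, 6.71, 13.8 and 13.2 CPM. Of the immune list CD14 was at 24.6, 14.3, 4.54 and 4.55 CPM. HLA-DRA went the other way, at 0.145, 2.79, 6.47 and 6.13 CPM, and was not called by edgeR. Of the adipocyte list FABP4 was at 95.0, 4.29, 0.422 and 0.398 CPM. None of the 4 fibroblast markers tested was called by edgeR, DESeq2 or limma-voom, and 0 had an unadjusted p under 0.05 with edgeR. In the lists of other cell types edgeR called 1 immune (LYZ, 13 and 38 counts in M1 and 0 in M2), 1 endothelial (KDR) and 1 adipocyte marker (FABP4) lower. DESeq2 called 1 marker of each of these 3 lists. Limma-voom called all 4 tested immune markers, among them HLA-DRA, which was higher in M2, and 1 endothelial and 1 adipocyte marker. Summed levels were 29.1, 22.4, 12.5 and 12.2 CPM for immune, 2.66, 3.21, 0.314 and 0.355 CPM for endothelial and 97.7, 5.56, 0.766 and 1.11 CPM for adipocyte markers. The part of such cells in any result was not tested.

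A gene was called when edgeR's quasi-likelihood test gave a Benjamini-Hochberg adjusted p under 0.05 and the log2 fold change was above 1 in size. In M2 against M1, 576 of 14088 protein-coding genes were called, or 4.09%. Of these, 387 (2.75%) were higher in M2 and 189 (1.34%) were lower. The median log2 fold change over all tested coding genes was -0.01, and 3712 of them had an unadjusted p under 0.05. In all 576 called genes both M2 libraries lay outside the range of the M1 libraries, as they did in 64.13% of all tested coding genes, and in 480 every M2 over M1 ratio was past 2-fold. DESeq2 called 1115 coding genes, 531 higher and 584 lower, and limma-voom with quality weights called 932, 450 higher and 482 lower. The balance of higher and lower genes therefore depended on the setting, and it also turned with edgeR when no filter was used (625 higher, 882 lower). With the 2 disputed libraries exchanged, edgeR called 0 genes (225 coding genes had an unadjusted p under 0.05), DESeq2 called 3 and limma-voom called 0. Of the 576 genes 253 then kept their direction. Without M2 replicate 1 or without M2 replicate 2, edgeR and limma-voom called 0 coding genes, and DESeq2 called 610 and 580. In those fits the lone M2 library is assumed to vary like the other lines. All 576 genes kept their direction in both edgeR fits. This was all but fixed beforehand, because both M2 libraries lay outside the M1 range in each of them. Past 2-fold in those fits were 567 and 562 of the 576.

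**Figure D1:**
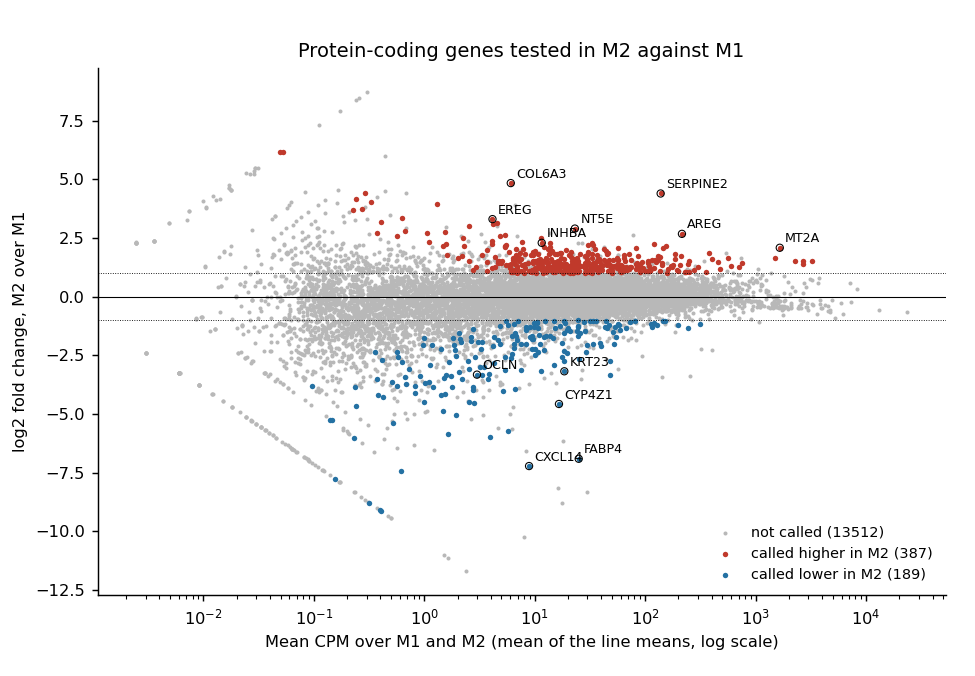
Log2 fold change of M2 over M1 (y axis) against the mean CPM over M1 and M2 (x axis, log scale) for the 14088 tested protein-coding genes. Red points are the 387 genes called higher in M2, blue points the 189 called lower, grey points those not called, dotted lines mark a 2-fold change, and 12 named genes are ringed. Among the ringed genes the values run from 4.85 (COL6A3) to -7.22 (CXCL14), and many uncalled genes of low level lie further out than the called ones.

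**Figure D2:**
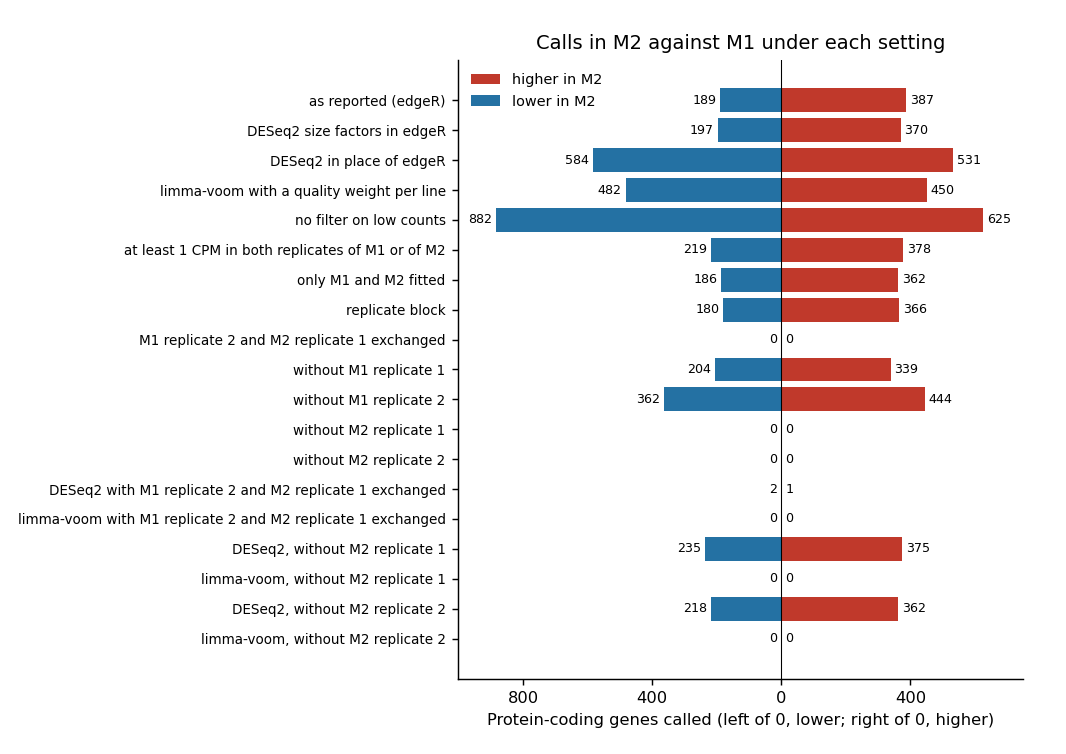
Number of protein-coding genes called higher (red, right of 0) and lower (blue, left of 0) in M2 under each processing setting. The count is 0 or near 0 when M1 replicate 2 and M2 replicate 1 are exchanged and, with edgeR and limma-voom, when either M2 library is left out.

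Genes of cell division rose together in M2. Of 40 mitosis genes, all of them tested, 36 were called higher and 0 lower, against 2.75% higher among all coding genes, and their median log2 fold change was 1.56. Of 36 tested DNA replication genes, 21 were called higher and 0 lower, with a median of 1.12, and 35 of the 36 had an unadjusted p under 0.05. All 40 mitosis genes and all 36 replication genes were above the M1 range in both M2 libraries, as were 4707 of all 14088 tested coding genes. The summed level of the mitosis genes was 1790 and 1392 CPM in M1 against 4529 and 4453 CPM in M2. For the replication genes it was 1499 and 1557 CPM in M1 against 3107 and 3061 CPM in M2. Together with 5 genes of cell cycle entry these lists hold 62 of the 387 genes called higher, or 16.02%. In bulk cultures more dividing cells and more of these transcripts per cell cannot be told apart.

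Among the mitosis genes, CENPE, the kinetochore motor that aligns chromosomes, was at 15.9 and 6.65 CPM in M1 against 56.4 and 53.8 CPM in M2, and rose by 2.29 ± 0.41 on the log2 scale (adjusted p = 0.0259). DLGAP5, a spindle assembly protein, was at 25.4 and 18.4 CPM in M1 against 92.9 and 91.5 CPM in M2 (2.08 ± 0.22, adjusted p = 0.00609). ANLN, the anillin of the cytokinetic ring, was at 70.4 and 40.8 CPM in M1 against 238 and 226 CPM in M2 (2.06 ± 0.34, adjusted p = 0.0185). HMMR, a hyaluronan receptor that also acts at the spindle, was at 18.5 and 14.7 CPM in M1 against 69.1 and 68.3 CPM in M2 (2.05 ± 0.17, adjusted p = 0.00605). In each of them the higher M1 library was M1 replicate 1 and the M2 libraries were nearly equal. The 4 mitosis genes that were not called were MKI67 (114 and 57.1 CPM in M1, 236 and 221 CPM in M2, adjusted p = 0.0743), AURKA (45.1, 25.1, 76.2 and 77.1 CPM, adjusted p = 0.0511), ESPL1, whose change of 0.98 missed the fold threshold, and BUB3 (131, 120, 163 and 166 CPM, adjusted p = 0.201). They were named after their values were seen. The median log2 ratio of M1 replicate 2 to M1 replicate 1 over the mitosis genes was -0.35. With M1 replicate 1 left out 37 mitosis genes were called and with M1 replicate 2 left out 30, at medians of 1.71 and 1.36. With the 2 disputed libraries exchanged 0 mitosis and 0 replication genes were called by edgeR, at medians of -0.12 and -0.02. With either M2 library left out edgeR called 0 of both lists, DESeq2 called 36 mitosis genes each time, and the mitosis median with edgeR was 1.55 and 1.57.

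The replication genes with the largest changes were GINS4, RRM2, CDCA7 and GINS2. GINS4 and GINS2 encode subunits of the GINS complex, which joins the MCM helicase with CDC45. GINS4 was at 7.15 and 7.95 CPM in M1 against 27.6 and 27.1 CPM in M2 (1.86 ± 0.17, adjusted p = 0.00605). GINS2 was at 14.3 and 15.3 CPM in M1 against 46.2 and 43.98 CPM in M2 (1.61 ± 0.13, adjusted p = 0.00605). RRM2, the regulated subunit of ribonucleotide reductase, was at 75.8 and 42.96 CPM in M1 against 199 and 200.5 CPM in M2 (1.75 ± 0.26, adjusted p = 0.013). CDCA7, which helps maintain DNA methylation after replication, was at 11.97 and 14.4 CPM in M1 against 46.5 and 41.9 CPM in M2 (1.75 ± 0.20, adjusted p = 0.0064). The median log2 ratio of M1 replicate 2 to M1 replicate 1 over the list was -0.03, with members on both sides.

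Cell cycle entry genes moved less uniformly. Of 23 tested, 5 were called higher (21.7%, against 2.75% of all coding genes) and 0 lower, and the median log2 fold change was 0.43. Without M1 replicate 1, 2 were called higher, without M1 replicate 2, 3 were higher and 1 lower, and with the disputed libraries exchanged the median was -0.10. MYBL2, a transcription factor of the G2 and M program, was at 34.7 and 27.9 CPM in M1 against 102 and 94.9 CPM in M2 (1.65 ± 0.23, adjusted p = 0.0108). CCNE2, a cyclin of the entry into S phase, was at 5.38 and 5.40 CPM in M1 against 16.8 and 14.9 CPM in M2 (1.56 ± 0.34, adjusted p = 0.0455). E2F7, a repressor of the E2F family, rose by 1.501 ± 0.15 (adjusted p = 0.00605), and RBL1, a relative of the retinoblastoma protein, by 1.28 ± 0.21 (adjusted p = 0.0174). CDC25A, a phosphatase that activates cyclin-dependent kinases, was also called. CCND1, a cyclin induced by growth factors, was at 61.3 and 76.3 CPM in M1 against 75.4 and 78.7 CPM in M2 (adjusted p = 0.651). CDKN1C, an inhibitor of cyclin-dependent kinases, was at 64.4 and 0.354 CPM in the 2 M1 libraries and at 0.0884 and 0.142 CPM in M2, and was not called (adjusted p = 0.0866).

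**Figure D3:**
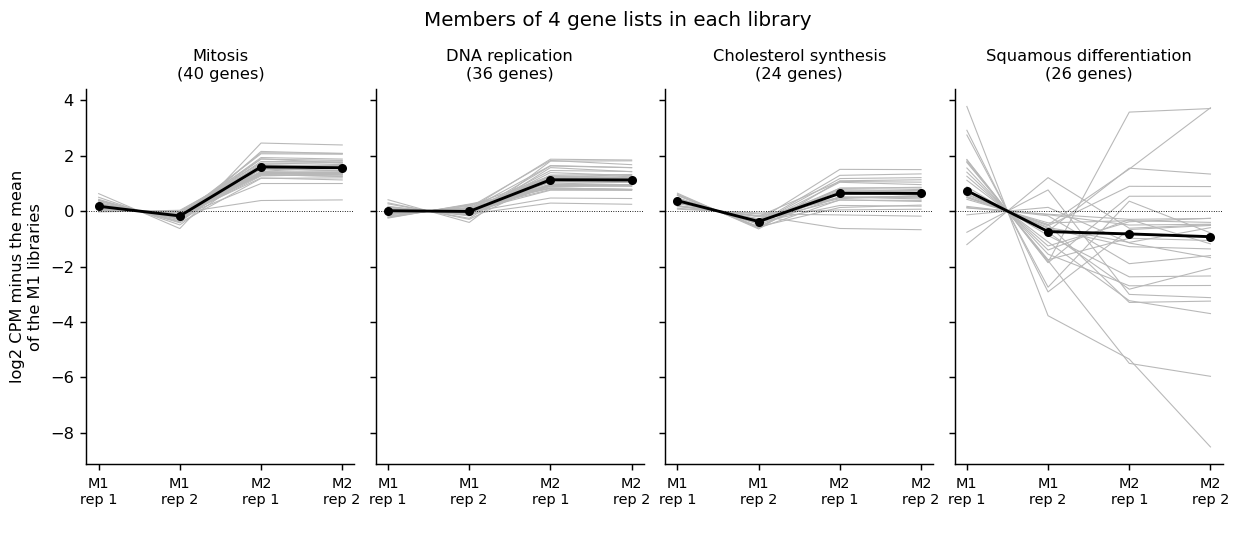
Log2 CPM of each tested member of 4 gene lists in the 4 libraries, relative to the mean of the M1 libraries; each grey line joins the values of 1 gene, the black line is the median, and members with a 0 in any library are left out. Mitosis and DNA replication genes sit higher in both M2 libraries than in either M1 library, the median of the cholesterol synthesis genes is lowest in M1 replicate 2, and that of the squamous genes drops from M1 replicate 1 to M1 replicate 2 and is little different in M2.

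The sequences upstream of these genes are shown because the mitosis and replication lists, which both rose, differ in their promoter letters. The 250 bases before the RefSeq start were searched on both strands for the CHR element (TTTGAA), the CCAAT box (CCAAT) and the E2F site (TTTCCCGC, TTTCGCGC, TTTGCCGC or TTTGGCGC), elements known from cell cycle promoters. The letters of the different motifs can lie side by side or overlap. CHR was found in 58.8% of the promoters of mitosis genes (20 of 34 with a RefSeq sequence), in 3.12% of those of replication genes (1 of 32) and in 8.93% of those of all 11258 tested coding genes with a sequence. The E2F letters were found in 40.6% of the replication promoters (13 of 32), 5.88% of the mitosis promoters (2 of 34) and 4.31% of all. The CCAAT box was found in 79.4% of mitosis, 53.1% of replication and 34.9% of all promoters. A match of letters is a description and not a bound site. Promoters of 2 genes of each list that hold such letters, from the named genes above, are printed 5′ to 3′ on the strand of the gene, in lower case with the motif letters, on either strand, in capitals. They are the upstream bases of HMMR (chr5:163460382-163460631, plus strand), ANLN (chr7:36389612-36389861, plus strand), CDCA7 (chr2:173354622-173354871, plus strand) and GINS2 (chr16:85688955-85689204, minus strand), from RefSeq on GRCh38.p14.
HMMR: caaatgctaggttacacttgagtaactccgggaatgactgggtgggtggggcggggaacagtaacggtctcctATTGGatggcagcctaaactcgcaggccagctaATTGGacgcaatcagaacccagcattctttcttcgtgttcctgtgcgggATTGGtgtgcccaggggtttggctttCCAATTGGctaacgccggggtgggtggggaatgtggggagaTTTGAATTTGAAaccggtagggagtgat
ANLN: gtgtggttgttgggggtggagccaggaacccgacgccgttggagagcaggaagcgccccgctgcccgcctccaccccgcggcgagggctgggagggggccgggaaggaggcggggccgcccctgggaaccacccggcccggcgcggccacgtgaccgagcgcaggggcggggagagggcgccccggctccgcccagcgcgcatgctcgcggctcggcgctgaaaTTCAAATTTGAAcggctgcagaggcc
CDCA7: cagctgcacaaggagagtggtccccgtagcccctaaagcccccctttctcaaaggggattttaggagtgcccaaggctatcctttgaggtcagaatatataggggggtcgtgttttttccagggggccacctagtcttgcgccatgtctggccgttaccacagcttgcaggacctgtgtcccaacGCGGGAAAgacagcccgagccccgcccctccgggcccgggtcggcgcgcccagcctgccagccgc
GINS2: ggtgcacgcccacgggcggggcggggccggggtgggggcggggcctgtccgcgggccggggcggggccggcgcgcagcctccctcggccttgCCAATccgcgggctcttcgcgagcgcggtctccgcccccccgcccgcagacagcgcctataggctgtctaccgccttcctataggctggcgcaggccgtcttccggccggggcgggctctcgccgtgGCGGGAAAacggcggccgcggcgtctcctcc
In HMMR the capitals nearest the start are 2 CHR elements beginning 28 and 22 bases before it, with CCAAT boxes further upstream. In ANLN they are 2 CHR elements, on opposite strands, 26 and 20 bases before the start. CDCA7 holds the E2F letters 65 bases before the start, and GINS2 holds them at 31 bases, with a CCAAT box at 158 bases.

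In the EGF and RAS pathway the ligands EREG and AREG rose. No gene of the kinase cascade list was called, where 4.09% of all coding genes were, and so short a list can hold no call at that share. Of 10 tested EGF-family ligands 2 were called higher and 0 lower, against 2.75% higher and 1.34% lower among all coding genes, with a median log2 fold change of 0.84. EREG, epiregulin, was at 0.749 and 0.768 CPM in M1 against 7.20 and 7.86 CPM in M2 (3.31 ± 0.31, adjusted p = 0.00605). AREG, amphiregulin, was at 25.8 and 90.4 CPM in M1 against 378 and 367 CPM in M2 (2.68 ± 0.54, adjusted p = 0.0384). Its reads can be shared with a near-identical copy, AREGB, whose counts were 1 and 3 in the M1 libraries against 37 and 52 in M2, so the AREG values are uncertain to that extent. HBEGF was at 5.22 and 8.34 CPM in M1 against 14.4 and 14.97 CPM in M2, which was not called (adjusted p = 0.0782), and TGFA was at 21.4, 12.1, 23.3 and 20.9 CPM. EGF itself, which was added to the medium, was at 0.230, 0.122, 0.363 and 0.554 CPM.

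None of 9 tested ERBB receptors and receptor inhibitors was called by edgeR, DESeq2 or limma-voom, against 4.09% of all coding genes with edgeR. An unadjusted edgeR p under 0.05 was found for 3 of the 9, and for 3712 of all 14088 coding genes. The median of the list was -0.43. None of 22 genes of the RAS, RAF, MEK and ERK core was called by these 3 tools, with 7 at an unadjusted edgeR p under 0.05 and a median of 0.12. Lists this short can hold no call at the share of all coding genes. SHC1, an adaptor between receptors and RAS, was at 387 and 368 CPM in M1 against 559 and 546 CPM in M2 (0.55 ± 0.19, adjusted p = 0.14). ERRFI1, a feedback inhibitor of EGFR, was at 137, 174, 147 and 156 CPM.

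Of 18 tested ERK feedback genes 1 was called higher (5.56%) and 1 lower (5.56%), with a median of -0.06. Without M1 replicate 2, 4 were called higher and 0 lower at a median of 0.52, and without M1 replicate 1, 1 was higher and 2 lower. DUSP5, a nuclear phosphatase of ERK, was at 3.83 and 3.56 CPM in M1 against 8.50 and 8.31 CPM in M2 (1.19 ± 0.17, adjusted p = 0.0109). RASA4, a GTPase-activating protein that turns RAS off, was at 7.42 and 11.5 CPM in M1 against 2.73 and 3.14 CPM in M2 (-1.69 ± 0.33, adjusted p = 0.0304), and it has a close copy, RASA4B, which was also called lower. DUSP6, a cytoplasmic ERK phosphatase, was at 38.1 and 99.1 CPM in M1 against 143 and 152 CPM in M2 and was not called (adjusted p = 0.147). Of 23 immediate early and ERK-responsive factors 2 were called higher (8.70%, against 2.75% of all coding genes) and 0 lower, with a median of 0.25. Without M1 replicate 2, 6 were called higher, and DESeq2 called 4. FOSL1, the FOS-family factor FRA-1, was at 10.6 and 15.4 CPM in M1 against 31.0 and 31.3 CPM in M2 (1.26 ± 0.19, adjusted p = 0.013). ELK3, an ETS-family factor, was at 20.8 and 20.3 CPM in M1 against 43.7 and 42.8 CPM in M2 (1.07 ± 0.14, adjusted p = 0.00842). EGR1, an immediate early factor, differed more between the M1 libraries than between the line means, and was at 23.6 and 144 CPM in M1 against 115 and 113 CPM in M2.

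The 15 genes with the largest rise included matrix, secreted and cell surface genes. COL6A3, a chain of collagen VI, was at 0.411 and 0.402 CPM in M1 against 12.2 and 11.2 CPM in M2 (4.85 ± 0.79, adjusted p = 0.0174). SERPINE2, an inhibitor of thrombin and plasminogen activators, was at 7.25 and 17.7 CPM in M1 against 264 CPM in each M2 library (4.40 ± 0.69, adjusted p = 0.0181). SRGN, the core protein of a secretory granule proteoglycan, was at 0.157 and 0.159 CPM in M1 against 2.83 and 2.10 CPM in M2 (3.95 ± 0.53, adjusted p = 0.00981). IL7R, a cytokine receptor chain, was at 0.604 and 0.524 CPM in M1 against 4.93 and 4.12 CPM in M2 (3.00 ± 0.30, adjusted p = 0.00605). NT5E, the ecto-nucleotidase CD73, was at 6.36 and 4.53 CPM in M1 against 42.5 and 39.1 CPM in M2 (2.90 ± 0.27, adjusted p = 0.00605). NMU, a secreted neuropeptide, was at 3.18 and 3.65 CPM in M1 against 18.9 and 19.9 CPM in M2 (2.50 ± 0.35, adjusted p = 0.0109). The others were EREG and AREG, the G protein subunit GNG2 (3.13), ZBED2 (3.11), EVI2B (2.78), the myosin heavy chain gene MYH15 (2.72), the guanine nucleotide exchange factor NGEF (2.62), the metalloreductase STEAP1 (2.58) and CFAP20DC (2.51), with the log2 fold change of each in parentheses.

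The 15 genes with the largest fall included secreted proteins, receptors, transporters and proton pump subunits. CXCL14, a chemokine made by epithelia, was at 25.2 and 10.2 CPM in M1 against 0.167 and 0.0569 CPM in M2 and fell by 7.22 ± 0.68 on the log2 scale (adjusted p = 0.00605). FABP4, a fatty acid binding protein, was at 95.0 and 4.29 CPM in M1 against 0.422 and 0.398 CPM in M2 (-6.91 ± 1.37, adjusted p = 0.0366), and its fall was -3.38 without M1 replicate 1. GABRP, a GABA receptor subunit of the breast, was at 2.56 and 12.8 CPM in M1 against 0.0982 and 0.142 CPM in M2 (-6.00 ± 1.00, adjusted p = 0.0189). SPDEF, an ETS factor of luminal and secretory epithelium, was at 2.61 and 3.84 CPM in M1 against 0.0393 and 0.0711 CPM in M2 (-5.87 ± 1.31, adjusted p = 0.0486). Subunits of the proton pump of acid-secreting epithelia fell: ATP6V1B1 was at 13.5 and 9.13 CPM in M1 against 0.118 and 0.313 CPM in M2 (-5.75 ± 0.61, adjusted p = 0.00609). ATP6V0A4 was at 6.57 and 4.20 CPM in M1 against 0.255 and 0.199 CPM in M2 (-4.55 ± 0.50, adjusted p = 0.00609). CYP4Z1, a cytochrome P450 of mammary tissue, was at 16.6 and 47.0 CPM in M1 against 1.45 and 1.21 CPM in M2 (-4.58 ± 0.68, adjusted p = 0.0134). KDR, the receptor of VEGF known from endothelium, was at 2.33 and 3.04 CPM in M1 against 0.187 and 0.0995 CPM in M2 (-4.19 ± 0.59, adjusted p = 0.0108), while the endothelial genes VWF, CDH5 and CLDN5 had at most 17 counts in any library. The others were IGFL1 (-5.03), the basement membrane gene FREM2 (-4.51), the matrix protein MATN2 (-4.04), the peptide transporter SLC15A2 (-3.97), RAPGEF3, an exchange factor that senses cyclic AMP (-3.93), ITPRID1 (-3.86) and BRINP2 (-3.83), again with the log2 fold change in parentheses.

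**Figure D4:**
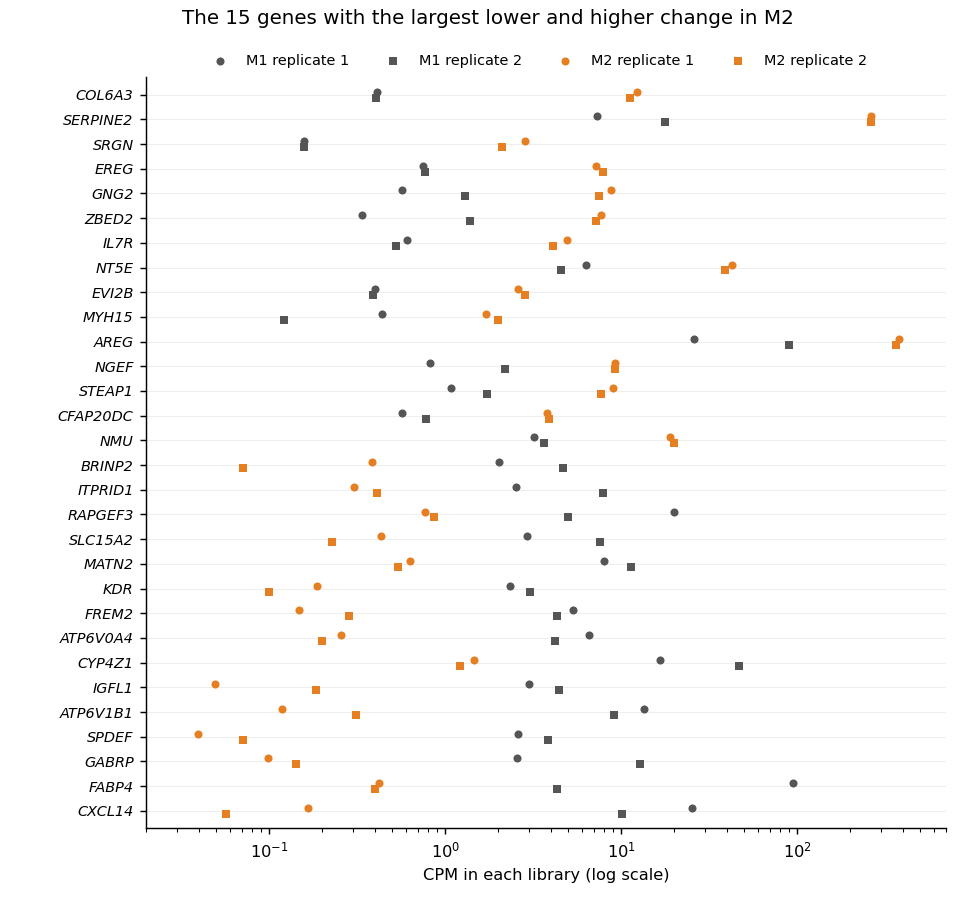
CPM in each library (x axis, log scale) of the 15 genes with the largest rise and the 15 with the largest fall in M2 among called genes with at least 100 counts in each library of the higher line; grey points are M1, orange points M2, circles replicate 1 and squares replicate 2. In all 30 genes the M2 points lie on 1 side of the M1 points, which the choice of genes required, and the M1 points are far apart in FABP4.

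Among matrix and adhesion genes a few members were called in each list. Of 27 tested collagen genes 3 were called higher (11.1%, against 2.75% of all coding genes) and 0 lower, and members ran from -3.61 to 4.85 around a median of -0.19. Without M1 replicate 1, 0 were called by edgeR, and without M1 replicate 2 the median was 0.32. Beside COL6A3, COL5A3 was at 1.27 and 1.63 CPM in M1 against 6.79 and 6.87 CPM in M2 (2.23 ± 0.40, adjusted p = 0.0226). COL4A2, a basement membrane collagen, was at 15.2 and 24.2 CPM in M1 against 57.9 and 56.9 CPM in M2 (1.54 ± 0.35, adjusted p = 0.0487). Of 15 laminin and nidogen genes 2 were called higher (13.3%) and 1 lower (6.67%), against 2.75% and 1.34% of all coding genes. LAMA3, a chain of the laminin of epithelial attachment, was at 98.2 and 134 CPM in M1 against 297 and 292 CPM in M2 (1.34 ± 0.22, adjusted p = 0.0185). LAMB2, a chain of other laminins, was at 170.5 and 222 CPM in M1 against 98.7 and 93.0 CPM in M2 and fell by 1.04 ± 0.22 on the log2 scale (adjusted p = 0.0393). ITGA3, the integrin chain that pairs with ITGB1 to bind the laminin of LAMA3, was the 1 called of 17 integrins (5.88% higher, against 2.75% of all coding genes). It was at 216 and 242 CPM in M1 against 483 and 476 CPM in M2 (1.07 ± 0.22, adjusted p = 0.0368). ITGA6 was at 291, 420, 756 and 758 CPM and was not called (adjusted p = 0.0766), and ITGB4 was at 737, 766, 752 and 728 CPM.

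Of 33 matrix glycoproteins, whose median was -0.49 and 0.36 without M1 replicate 2, MATN2 fell and SPOCK1, a secreted proteoglycan, rose, from 5.69 and 6.32 CPM in M1 to 15.01 and 16.2 CPM in M2 (1.38 ± 0.19, adjusted p = 0.0109). Fibronectin, FN1, was at 47.5 and 85.4 CPM in M1 against 199 and 190 CPM in M2 without being called (adjusted p = 0.132). Of 32 matrix proteases 2 were called higher, CTSL, the lysosomal protease cathepsin L, at 70.7 and 66.0 CPM in M1 against 146 and 145 CPM in M2 (1.09 ± 0.12, adjusted p = 0.00624), and ADAMTS12, whose counts were 5 and 8 in M1 against 60 and 62 in M2. Shares called in these lists, 3.03% each way in the glycoproteins and 6.25% higher in the proteases, stood against 2.75% higher and 1.34% lower overall. Without M1 replicate 1, 3 glycoproteins were called in each direction, and 1 protease in each. Without M1 replicate 2, 3 glycoproteins and 4 proteases were higher. Of 26 protease inhibitors 2 rose and 2 fell (7.69% each), at a median of -0.70 that was 0.11 without M1 replicate 1, and 3 rose and 4 fell without M1 replicate 2. TIMP1, an inhibitor of matrix metalloproteinases, was at 222 and 257 CPM in M1 against 679 and 660 CPM in M2 (1.48 ± 0.19, adjusted p = 0.00842), and the other that rose was SERPINE2. SERPINF1, also known as PEDF, was at 4.24 and 7.76 CPM in M1 against 0.560 and 0.640 CPM in M2 (-3.32 ± 0.50, adjusted p = 0.0133). SERPINA5 was at 7.68 and 11.5 CPM in M1 against 1.01 and 1.19 CPM in M2 (-3.12 ± 0.36, adjusted p = 0.0064).

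Tight junction genes were the called members of the junction list, and all of them fell. Of 40 tested junction genes 4 were called lower and 0 higher, against 1.34% lower among all coding genes, and the median was -0.16. OCLN, occludin, was at 6.55 and 4.35 CPM in M1 against 0.481 and 0.611 CPM in M2 (-3.32 ± 0.28, adjusted p = 0.00605). TJP3, a scaffold of the tight junction, was at 19.9 and 19.8 CPM in M1 against 4.26 and 4.07 CPM in M2 (-2.26 ± 0.45, adjusted p = 0.0322). CLDN8, a claudin of the junction strand, was at 8.88 and 12.3 CPM in M1 against 2.08 and 2.52 CPM in M2 (-2.21 ± 0.46, adjusted p = 0.0393). Another claudin, CLDN7, was at 86.6 and 86.0 CPM in M1 against 32.4 and 32.3 CPM in M2 (-1.42 ± 0.25, adjusted p = 0.0214). E-cadherin, CDH1, was at 185, 220, 159 and 156 CPM and was not called (adjusted p = 0.19). Without M1 replicate 1, 1 junction gene was called lower and 1 higher, and without M1 replicate 2, 2 were called in each direction.

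Keratins KRT17, KRT6B and KRT14 of basal and stressed epithelium rose. Of 15 tested genes of that list 3 were called higher (against 2.75% of all coding genes) and 0 lower, with a median of 0.33. Members ran from -1.32 to 1.66, and 9 of the 15 had a positive log2 fold change. In both M2 libraries 6 lay above the M1 range and 3 below it. Of all 14088 tested coding genes, 4707 lay above it and 4327 below it. With only M1 and M2 fitted, 1 was called higher. KRT17 was at 1140 and 1656 CPM in M1 against 4005 and 3913 CPM in M2 (1.502 ± 0.27, adjusted p = 0.0251). KRT6B was at 195.5 and 343 CPM in M1 against 849 and 848 CPM in M2 (1.66 ± 0.26, adjusted p = 0.015). KRT14 was at 17.7 and 8.26 CPM in M1 against 37.3 and 36.3 CPM in M2 (1.51 ± 0.31, adjusted p = 0.0383). Keratin genes share sequence, so their counts can be split between members. Of 14 luminal genes edgeR called KRT23 alone (7.14% lower, against 1.34% of all coding genes), and DESeq2 and limma-voom each called 3 lower. KRT23 was at 19.7 and 47.1 CPM in M1 against 3.93 and 3.42 CPM in M2 (-3.18 ± 0.50, adjusted p = 0.0154). The list's median was -1.10, and in both M2 libraries 8 members lay below the M1 range and 3 above it. The luminal keratins KRT8 (723, 788, 1010 and 987 CPM) and KRT7 (1668, 834, 940 and 920 CPM) were not called.

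The squamous differentiation list had the lowest median of the 30 lists, -1.75 over 31 tested genes. EdgeR called 1 member lower (3.23%, against 1.34% of all coding genes), DSG1, a desmosomal cadherin of the upper epidermis. DESeq2 called 5 of the list lower, and 584 of all 14088 coding genes lower. Limma-voom called 6 of the list lower and 1 higher, and 482 of all 14088 lower and 450 higher. DSG1 was at 3.78 and 1.93 CPM in M1 against 0.275 and 0.284 CPM in M2 (-3.35 ± 0.51, adjusted p = 0.0189). The M1 libraries differed across the list, with a median log2 ratio of replicate 2 to replicate 1 of -1.22. KRT10, a keratin of differentiating keratinocytes, was at 836 CPM in M1 replicate 1, at 96.9 CPM in M1 replicate 2 and at 43.97 and 44.3 CPM in M2, and KRT1 was at 70.8, 0.378, 0.128 and 0.0142 CPM. Leaving out M1 replicate 1 moved the list's median to -0.17, and leaving out M1 replicate 2 moved it to -2.29. The calls were then 2 and 6, all lower.

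Mesenchymal and secreted signalling lists had 1 to 3 calls each. The shares called higher were 7.41% in the EMT list, 7.14% in the chemokine list, 3.23% in the cytokine list, 2.22% in the interferon list and 3.03% in the TGF-beta list, against 2.75% of all coding genes. Called lower were 3.70%, 7.14%, 0%, 0% and 3.03% in the same order, against 1.34% of all coding genes. Of 27 tested genes of the EMT list 2 rose, NT5E and INHBA, and 1 fell, TPM1. INHBA, the activin A subunit, was at 3.13 and 4.70 CPM in M1 against 19.01 and 19.5 CPM in M2 (2.30 ± 0.23, adjusted p = 0.00605). TPM1, a tropomyosin of actin filaments, was at 207 and 120.5 CPM in M1 against 65.4 and 66.8 CPM in M2 (-1.31 ± 0.27, adjusted p = 0.0349). VIM, vimentin, was at 55.5 and 408 CPM in the 2 M1 libraries and at 848 and 839 CPM in M2, and was not called (adjusted p = 0.206). Of 14 tested chemokine genes CXCL14 fell and CXCL8, a chemoattractant of neutrophils, rose, from 1.11 and 1.95 CPM in M1 to 5.65 and 4.72 CPM in M2 (1.76 ± 0.33, adjusted p = 0.0283). Of 31 cytokine and acute phase genes 1 was called, CSF2, a growth factor of myeloid cells, with 0 counts in both M1 libraries and 7 and 10 counts in M2, so it rests on few reads. PTGES, a prostaglandin synthase, was at 596, 110, 177.5 and 175 CPM and was not called. Of 45 interferon-stimulated genes OAS3, a sensor of double-stranded RNA, rose from 48.8 and 49.9 CPM in M1 to 122 and 119 CPM in M2 (1.29 ± 0.24, adjusted p = 0.0253), and the list's median was 0.15. The OAS3 call was lost when either M1 library was left out. In the TGF-beta and BMP list INHBA rose and ID4, a helix-loop-helix inhibitor, fell, at 1.17 and 0.744 CPM in M1 against 0.187 and 0.185 CPM in M2 (adjusted p = 0.046).

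Among metabolic genes, LDHA, SLC16A3, HMGCS1 and FDPS rose. Of 38 tested glycolysis and hypoxia genes 4 were called higher (10.5%) and 1 lower (2.63%), against 2.75% and 1.34% of all coding genes, the median was 0.74, and 34 had a positive log2 fold change. LDHA, lactate dehydrogenase A, was at 1243 and 1683 CPM in M1 against 3881 and 3874 CPM in M2 (1.41 ± 0.27, adjusted p = 0.031). SLC16A3, the lactate exporter MCT4, was at 143 and 116 CPM in M1 against 371 and 370.5 CPM in M2 (1.52 ± 0.15, adjusted p = 0.00605). BNIP3, a mitophagy receptor induced by hypoxia, was at 24.5 and 38.3 CPM in M1 against 114 and 107.4 CPM in M2 (1.81 ± 0.40, adjusted p = 0.0459). P4HA1, a collagen prolyl hydroxylase, was at 55.3 and 77.8 CPM in M1 against 192.5 and 197 CPM in M2 (1.55 ± 0.30, adjusted p = 0.0289). EPAS1, the hypoxia factor HIF-2 alpha, was at 238.5 and 166 CPM in M1 against 101 and 98.0 CPM in M2 and fell by 1.02 ± 0.22 on the log2 scale (adjusted p = 0.044). CA9 was at 1.59 and 41.7 CPM in the M1 libraries and at 132 and 133 CPM in M2 and was not called (adjusted p = 0.298). Without M1 replicate 1 the list had 1 call, and without M1 replicate 2 it had 7. With the disputed libraries exchanged its median was 0.07.

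Of 24 tested cholesterol synthesis genes 3 were called higher (12.5%, against 2.75% of all coding genes) and 0 lower, with a median of 0.61. HMGCS1, which makes HMG-CoA, was at 81.7 and 51.5 CPM in M1 against 184 and 183 CPM in M2 (1.46 ± 0.28, adjusted p = 0.0284). FDPS, farnesyl diphosphate synthase, was at 174 and 134.5 CPM in M1 against 321 and 315 CPM in M2 (1.04 ± 0.17, adjusted p = 0.0171), and STARD4, a sterol transfer protein, was at 14.0 and 7.89 CPM in M1 against 25.7 and 26.7 CPM in M2 (1.26 ± 0.24, adjusted p = 0.0308). M1 replicate 2 was lower than M1 replicate 1 across the list, with a median log2 ratio of -0.75. Without M1 replicate 1, 9 of these genes were called higher at a median of 0.98, and without M1 replicate 2, 0 were called by edgeR at a median of 0.29. With the disputed libraries exchanged the median was -0.27. Of 36 fatty acid genes FABP4 alone was called (2.78% lower, against 1.34% of all coding genes), and without M1 replicate 2, 5 were lower. FASN was at 1416 and 468 CPM in the M1 libraries and at 864 and 817 CPM in M2, so that M2 lay between them.

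Of 27 genes of the unfolded protein and amino acid response 1 rose and 1 fell, SDF2L1 (1.01 ± 0.17, adjusted p = 0.0183) and HERPUD1 (-1.31 ± 0.26, adjusted p = 0.0317), both of which serve the endoplasmic reticulum. The shares, 3.70% each way, were near the 2.75% higher and 1.34% lower of all coding genes. The SDF2L1 call was lost under 5 alternatives, among them DESeq2 and limma-voom, and that of HERPUD1 without M1 replicate 1. Of 24 antioxidant and metallothionein genes 1 was called higher (4.17%, against 2.75% of all coding genes). It was MT2A, a metal-binding metallothionein, at 691 and 570 CPM in M1 against 2666 and 2693 CPM in M2 (2.09 ± 0.24, adjusted p = 0.00643). AKR1C2 was at 533.5, 179, 1108 and 1102 CPM and was not called. None of 44 WNT and Notch genes and none of 28 p53 targets was called by edgeR, against 4.09% of all coding genes. An unadjusted edgeR p under 0.05 was found for 14 and 9 of them, and for 3712 of all 14088 coding genes. DESeq2 called 3 of the WNT and Notch genes and 1 of the p53 targets, and limma-voom 5 and 1. SFN, a target of p53 that holds cells in G2, was at 506 and 445 CPM in M1 against 913 and 916 CPM in M2, a change of 0.94 with an adjusted p of 0.0161 that missed the fold threshold.

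**Figure D5:**
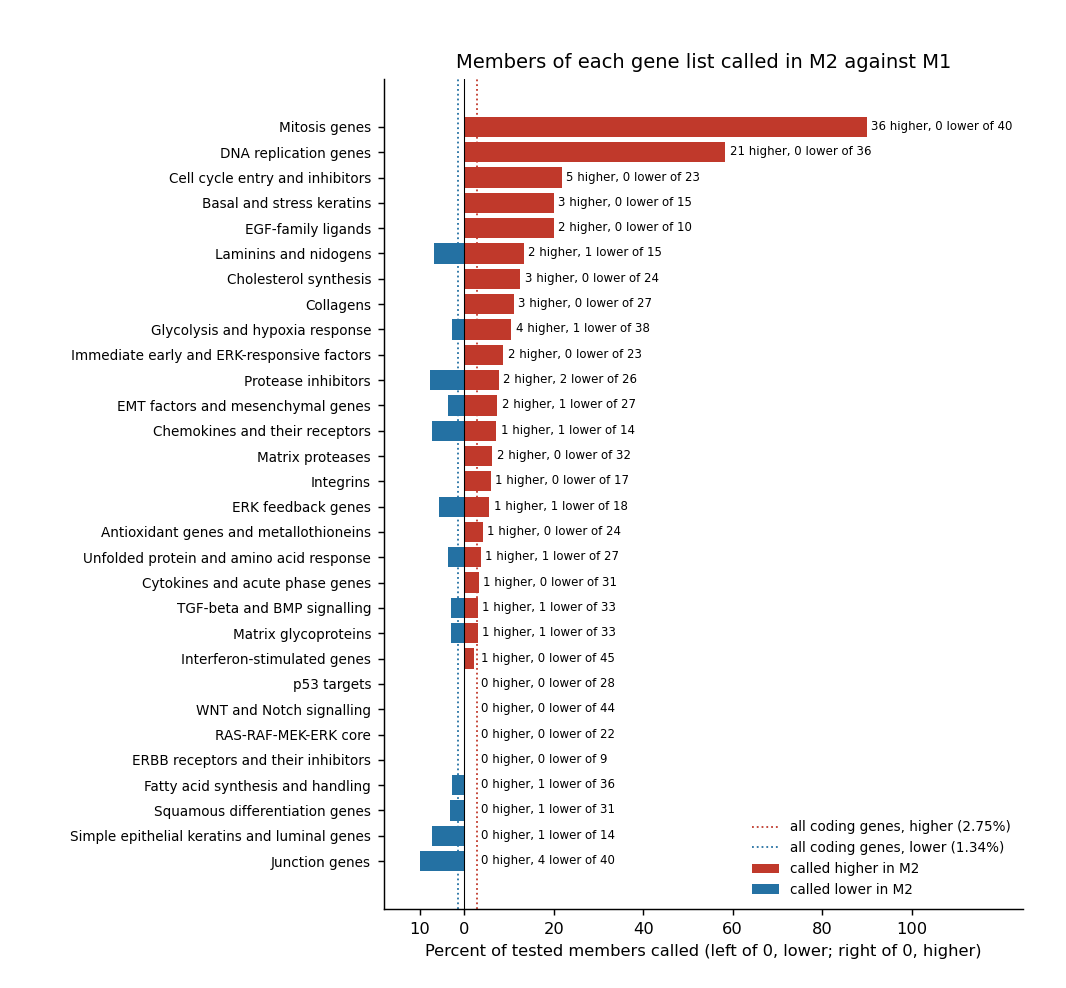
Percent of the tested members of each of 30 gene lists called higher (red, right of 0) and lower (blue, left of 0) in M2, with the numbers beside each bar; dotted lines mark the share among all tested coding genes, 2.75% higher and 1.34% lower. The mitosis and DNA replication lists stand furthest right, with 36 of 40 and 21 of 36 members called higher.

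S100A2, KRT17, LDHA, HSP90AA1 and MT2A had the highest mean CPM among genes called higher, a choice by CPM that favours long transcripts and says nothing of levels between genes. S100A2, a calcium-binding protein of basal epithelium, was at 1622 and 1720 CPM in M1 against 4801 and 4784 CPM in M2 (1.52 ± 0.22, adjusted p = 0.0128). HSP90AA1, the stress-inducible HSP90 chaperone, was at 1115 and 1227 CPM in M1 against 3459 and 3360 CPM in M2 (1.54 ± 0.24, adjusted p = 0.0145). On the lower side the choice included NOP53, GPX4, EPAS1 and LAMB2. GPX4, the peroxidase that protects membrane lipids, was at 319 and 242 CPM in M1 against 122 and 118 CPM in M2 (-1.22 ± 0.21, adjusted p = 0.0189). NOP53, a ribosome biogenesis factor, was at 375 and 481.5 CPM in M1 against 194.5 and 192 CPM in M2 (-1.15 ± 0.23, adjusted p = 0.0323). The 36 cytosolic ribosomal protein genes had a median of -0.42, with 31 below the M1 range in both M2 libraries. Of all 14088 tested coding genes, 4327 lay below it. None was called by edgeR, DESeq2 or limma-voom, and 3 had an unadjusted edgeR p under 0.05, against 3712 of all 14088 coding genes. The 13 mitochondrially encoded genes had a median of -0.22, with 0 called by the 3 tools and 1 at an unadjusted edgeR p under 0.05.

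Across the genome the called genes were spread over every autosome and the X chromosome. The median log2 fold change of the tested coding genes lay between -0.10 and 0.10 on each autosome except chromosome 20, where it was -0.21 over 368 genes, and it was 0.03 on the X chromosome. On chromosome 20 it became -0.05 when M1 replicate 1 was left out and -0.31 when M1 replicate 2 was, and on chromosome 9, with a median of 0.10 over 581 genes, it was 0.08 and 0.21. The share of tested genes called was 7.16% on chromosome 4 and 6.70% on chromosome 5, against 4.09% over all, and 2.20% on the X chromosome, where 10 genes were higher and 0 lower.

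By the study's own criterion, a ratio past 2-fold in the same direction in replicate 1 and again in replicate 2, applied here to CPM with 0.001 added, 1713 of 16050 coding genes with a count in M1 or M2 changed, or 10.7%. Of these 685 were higher in M2 and 1028 lower. The rule carries no error. With 1 CPM added, which removes genes near 0, it gave 507 genes, 330 higher and 177 lower, and with the 2 disputed libraries exchanged it gave 488.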

How the data were processed

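The 8 libraries of poly A+ RNA, 2 for each of 4 lines, were read from the table of expected counts per gene that the authors deposited. The authors trimmed paired-end reads with Trimmomatic, aligned them to hg19 with STAR and estimated counts with RSEM on GENCODE release 19. These estimated counts are not normalized, and whether counting used strand is not given in the sources used here, so overlapping and antisense genes are uncertain. Counts were rounded to whole numbers. Gene classes came from GENCODE release 44 on the same build (94.7% of the genes with a count matched). Library totals are given in the report. The study calls the replicates biological, and whether they were separate cultures is not given in the sources used here, so p-values measure the spread between these samples.

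The quasi-likelihood test of edgeR 4.0.16 (R 4.3.3), with robust estimation, TMM scaling and filterByExpr, was fitted to all 8 libraries with 1 coefficient per line, and Benjamini-Hochberg adjustment over 18431 genes, coding or not. A call needed an adjusted p under 0.05 and an absolute log2 fold change above 1. Standard errors are those implied by the F statistic. DESeq2 1.42.0 and limma 3.58.1 were alternatives, beside other scalings, filters, thresholds, a replicate block, left-out libraries and the exchanged labels. Other steps ran in Python 3.11.15 (numpy 2.4.6, scipy 1.17.1, pandas 2.3.3), and matplotlib 3.10.9 drew the figures. On simulated counts over 18431 genes the fit recovered 162 of 200 genes changed 4-fold, with 13 false calls. The simulation gave every line the same mean and spread per gene, and changed only well-counted genes. The real M1 and M2 libraries differ in spread, so it checks the code and does not measure recovery or false calls in these data.

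The genes named are HRAS and EGFR, the 15 called genes with the largest change in each direction whose libraries did not overlap and with at least 100 counts in each library of the higher line, up to 4 called members of each list by the same requirements (the 2 of highest level where fewer than 2 were called), and the 5 called genes of highest level in each direction. Uncalled genes outside this rule, the 2 copies AREGB and RASA4B, NRAS, CDC25A, ADAMTS12, CSF2 and ID4 were named after their values were seen. Some genes that the rule names are not reported here. The members, lists and rules were chosen with earlier results of these data known.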

Additional observations from a re-analysis of the deposited data

How the results depend on the processing

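The 576 coding calls (387 higher, 189 lower) were 567 with DESeq2's type of size factors, 597 with a CPM minimum of 1, 548 with only M1 and M2 fitted and 546 with a replicate block. The deviations of M1 and M2 replicate 1 from their line means had a correlation of -0.013 across 14294 genes. The M2 replicates were nearly equal (biological coefficient of variation of 0.0574, against 0.3765 in M1). The correlation therefore cannot tell whether the replicate numbers pair the samples. Counts moved by over 1.5 times with DESeq2 (1115, 531 higher and 584 lower), limma-voom with quality weights (932, 482 of them lower) and no filter (1507, 625 higher and 882 lower). Without a fold threshold 841 were called, 590 of them higher, and at an absolute log2 fold change above 2 there were 159 (55 higher and 104 lower). Leaving out a library gave 0 to 806 calls with edgeR, 0 to 444 higher and 0 to 362 lower, the highest without M1 replicate 2 and 0 without either M2 library, where 1917 and 1908 coding genes had an unadjusted p under 0.05. Alternatives chosen after the data were seen gave, without M2 replicate 1 and 2, 610 and 580 calls with DESeq2 and 0 and 0 with limma-voom (1723 and 1871 at an unadjusted p under 0.05). With M1 replicate 2 and M2 replicate 1 exchanged, edgeR called 0 (225 at an unadjusted p under 0.05), and, in alternatives chosen after the data were seen, DESeq2 called 3 (1 higher and 2 lower) and limma-voom 0. That exchange changed the sign of 45 of 86 called named genes, the higher ones at a log2 fold change of COL6A3 -0.13, SRGN -0.41, GNG2 -0.09, IL7R -0.26, NT5E -0.17, MYH15 -0.02, STEAP1 -0.10, DUSP5 -0.06, ELK3 -0.03, CTSL -0.04, KRT14 -0.30, CXCL8 -0.03, OAS3 -0.02, RRM2 -0.17, CDCA7 -0.06, GINS2 -0.03, CENPE -0.26, DLGAP5 -0.11, ANLN -0.21, HMMR -0.08, MYBL2 -0.15, CCNE2 -0.13, E2F7 -0.15, RBL1 -0.04, HMGCS1 -0.18, STARD4 -0.20, FDPS -0.14, SLC16A3 -0.08, MT2A -0.04, and the lower ones at GABRP 2.29, SPDEF 0.57, IGFL1 0.61, CYP4Z1 1.42, KDR 0.32, MATN2 0.47, SLC15A2 1.23, ITPRID1 1.55, BRINP2 0.98, RASA4 0.53, LAMB2 0.23, SERPINF1 0.81, SERPINA5 0.55, CLDN8 0.44, KRT23 1.10, NOP53 0.24. No other alternative changed the sign of a called named gene. That was all but fixed beforehand, because in every called gene both M2 libraries lay outside the M1 range. Calls were lost, with the sign kept, for 31 of the 86 without M1 replicate 1 (adjusted p 0.0505 to 0.155), among them SPDEF, IGFL1, COL6A3, SERPINE2, GNG2, ZBED2, EVI2B, NGEF, COL5A3, COL4A2, LAMA3, ITGA3, TJP3, CLDN8, CLDN7, KRT17, DSG1, TPM1, CXCL8, OAS3, CCNE2, RBL1, BNIP3, P4HA1, LDHA, HERPUD1, S100A2, HSP90AA1, GPX4 and EPAS1. Without M1 replicate 2, 17 were lost, by the p or by the fold threshold (adjusted p 0.026 to 0.105), namely SPDEF, IGFL1, BRINP2, COL6A3, RASA4, LAMB2, ITGA3, TJP3, CLDN8, OAS3, CCNE2, HMGCS1, STARD4, FDPS, BNIP3, SDF2L1 and NOP53. With only M1 and M2 fitted 16 were lost, 8 with the replicate block, 4 with limma-voom and 1 with DESeq2, and all 86 without either M2 library. Called under all 9 alternatives that keep the labels and both M2 libraries were 258 genes, 209 higher and 49 lower. The 2-fold rule gave 507 genes with 1 CPM added, 1123 with at least 10 counts, 488 with the exchange, 1697 with total counts, 1713 with crossed pairs and 3914 to 4100 from a lone replicate. The cause of these shifts was not tested. Genes of few counts are limited by depth, and 44 called genes had under 100 counts in a library of the higher line.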

Other observations

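Further called genes that no list covered were chosen after their values were seen and stand here as single genes. BLM, the helicase mutated in Bloom syndrome, was at 5.28 and 5.0 CPM in M1 against 20.6 and 21.4 CPM in M2 (2.03 ± 0.20, adjusted p = 0.00605). FANCD2, of the Fanconi pathway, rose by 1.35 ± 0.15 (adjusted p = 0.00609) and the exonuclease EXO1 by 1.53 ± 0.24 (adjusted p = 0.0157). Several tubulin genes were called. TUBA1B was at 580 and 869 CPM in M1 against 2332 and 2252 CPM in M2 (1.66 ± 0.28, adjusted p = 0.019), and TUBB4B was at 352 and 451 CPM in M1 against 1107 and 1088 CPM in M2 (1.45 ± 0.19, adjusted p = 0.00847). TUBB3, the neuronal beta tubulin, rose by 2.10 ± 0.43 (adjusted p = 0.0373). TUBB was at 596, 973, 1491 and 1480 CPM and was not called (adjusted p = 0.161). Tubulin genes are near-identical in parts, so their counts are uncertain. Surface genes that rose included L1CAM, a neural adhesion molecule, at 3.07 and 3.06 CPM in M1 against 12.3 and 13.2 CPM in M2 (2.05 ± 0.17, adjusted p = 0.00605), and PLAUR, the urokinase receptor, at 8.77 and 10.9 CPM in M1 against 23.6 and 24.2 CPM in M2 (1.28 ± 0.17, adjusted p = 0.00994). The chromatin protein HMGA2 was at 3.90 and 7.84 CPM in M1 against 23.1 and 22.6 CPM in M2 (1.96 ± 0.30, adjusted p = 0.0134).

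Of called genes that fell, chosen in the same way, STAT5A, a transducer of prolactin and growth hormone signals, was at 11.02 and 2.96 CPM in M1 against 0.638 and 0.796 CPM in M2 (-3.29 ± 0.65, adjusted p = 0.0317), and GHR, the growth hormone receptor, was at 9.28 and 9.04 CPM in M1 against 1.51 and 1.53 CPM in M2 (-2.59 ± 0.39, adjusted p = 0.0134). FBXO32, the ubiquitin ligase atrogin-1, was at 84.2 and 83.7 CPM in M1 against 12.8 and 11.9 CPM in M2 (-2.76 ± 0.30, adjusted p = 0.00609). PDK4, an inhibitor of pyruvate dehydrogenase, was at 27.0 and 18.2 CPM in M1 against 6.64 CPM in each M2 library (-1.77 ± 0.28, adjusted p = 0.0166). BCL6, a transcriptional repressor, was at 104 and 64.4 CPM in M1 against 20.7 and 21.4 CPM in M2 (-2.00 ± 0.30, adjusted p = 0.0134), and MXD4, a repressor of growth genes, was at 184 and 130 CPM in M1 against 73.6 and 66.5 CPM in M2 (-1.16 ± 0.22, adjusted p = 0.0278).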
